A study of Mus musculus with 4 samples.

Results

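The 10 genes described here encode the machinery of classical MHC class I antigen presentation in the mouse. They were taken by symbol from the 55335 genes of the deposited tables. The rule used no measured value, but earlier results of these data were known when the genes were chosen. H2-K1 and H2-D1 encode the heavy chains of the classical class I molecules, and B2m encodes beta-2-microglobulin, their shared light chain. Tap1 and Tap2 encode the subunits of the peptide transporter TAP, and Tapbp encodes tapasin, which bridges TAP and the empty class I molecule. Psmb8, Psmb9 and Psmb10 encode the catalytic subunits of the immunoproteasome, and Nlrc5 encodes the transactivator of class I genes. All 10 were present in the count table and in the RSEM tables.

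RNA was sequenced from the mouse ESC line AB2.2, a single line, with 2 control libraries and 2 libraries made after 24 h in medium with 50 mM lactate. Both groups were grown on mouse embryonic fibroblast (MEF) feeder cells, in medium with fetal bovine serum, leukemia inhibitory factor, the GSK3 inhibitor CHIR99021 and the MEK inhibitor PD0325901, and lactate was added to the treated cells. The comparison asks which transcripts differ in level upon lactate supplementation. No label says whether the 2 libraries of a group came from separate cultures, so the p-values below measure only the spread between these libraries.

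Class I molecules display peptides of cytosolic origin at the cell surface. Proteasomes cut proteins into peptides, TAP carries them into the endoplasmic reticulum, and chaperones including tapasin help to load them onto the heavy chain and beta-2-microglobulin before the complex travels to the surface, where CD8 T cells read it. Interferons raise most of these genes in differentiated cells through IRF and STAT factors, while pluripotent cells are known for low class I levels and for a weak response to interferon.

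Gene counts summed to between 18067562 and 19077885 per library, and mitochondrial genes took 2.43% to 5.72% of them, with the higher shares in the replicate 1 library of both groups. The 8 ESC markers were all well above the filter on low counts, with a median log2 fold change of 0.22 and none called. The 10 feeder fibroblast markers were detected too, at a summed CPM (read counts scaled to library size, after TMM scaling) of 419 and 614 in control and 427 and 482 in lactate. The cultures held feeder cells, but whether these transcripts came from them was not tested, and fewer cells of a type cannot be told apart from less RNA per cell in such bulk samples. Of 8 leukocyte markers, 4 passed the filter and none was called. The summed CPM of the 8 was 33.6 and 28.8 in control and 33.4 and 27.7 in lactate. Ptprc, Adgre1 and Aif1 had at most 3 reads in any library.

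None of the 9 tested genes was called different, where a call needs an adjusted p under 0.05 (edgeR's quasi-likelihood test, Benjamini-Hochberg method) and a change of more than 2-fold. Of 18661 genes tested, 0.348% were called lower and 0.552% higher upon lactate supplementation. Tapbp and Tap1 had the largest differences among the 9 tested genes, both with less RNA in the lactate libraries. Tap2 and Nlrc5 lay on the other side, at higher values in both lactate libraries. The groups of H2-K1, H2-D1, B2m, Psmb9 and Psmb10 overlapped on the CPM scale. Psmb8 was too low to be tested.

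At an unadjusted p under 0.05, 2 of the 9 tested genes were lower (Tapbp and Tap1) and 0 were higher, against 11.4% of all tested genes lower and 11.7% higher. Both lactate libraries lay below both controls in 2 of the 9 and above both in 2 of the 9, against 25.9% and 27% of all tested genes, so both shares were close to the background. The median log2 fold change of the 9 was -0.07, beside 0.01 over all tested genes, with 5 genes on the lower and 4 on the higher side. This median ran from -0.33 to 0.18 with 1 library left out. The 9 values were spread from -0.95 to 0.80. DESeq2, which called 0.868% of all genes lower, also called 0 of the 9. DESeq2 on the RSEM expected counts called 1, Tapbp, among 0.891% of all genes called lower. Limma-trend called 0 of all the genes it tested in either direction, so its lack of a call here says nothing about these genes.

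**Figure D1:**
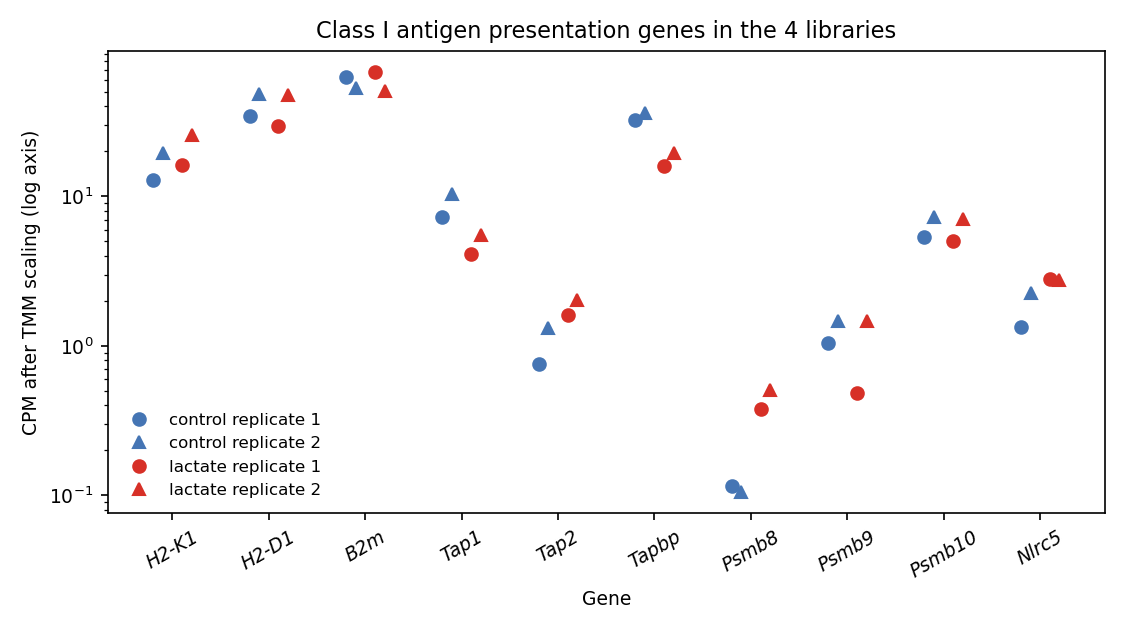
CPM after TMM scaling (log axis) of each of the 10 genes in the 2 control libraries (blue) and the 2 lactate libraries (red), with circles for replicate 1 and triangles for replicate 2. The groups are apart for Tap1 and Tapbp, lower in lactate, and for Tap2, Nlrc5 and Psmb8, higher in lactate, while those of the other 5 genes overlap.

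Per length of transcript, the genes fell into wide bands of abundance. On the TPM scale (from RSEM, per transcript length and library size), B2m had a level of 136 ± 12.7 (SD, n = 2) in control and 144 ± 43.1 in lactate, above 94.6% to 96.6% of the genes detected in a library. Next in control came H2-D1 at 32.0 ± 8.36, H2-K1 at 29.2 ± 1.05, Psmb10 at 27.1 ± 5.45 and Tapbp at 26.8 ± 1.40 TPM, and each of these neighbours overlapped in the order. The remaining genes were far lower, from Tap1 at 5.22 ± 1.36 TPM through Psmb9 at 1.54 ± 0.148 and Tap2 at 0.775 ± 0.233 to Nlrc5 at 0.595 ± 0.00707 and Psmb8 at 0.520 ± 0.156, and of these neighbours only the last pair overlapped. In lactate Tapbp, at 12.7 ± 0.757 TPM, no longer overlapped Psmb10 at 30 ± 7.99. Psmb9, at 0.900 ± 0.552, had moved to the end of the order, where its range overlapped that of Nlrc5 at 1.20 ± 0.0354. H2-K1, at 40.6 ± 5.75, stood above H2-D1 at 31.4 ± 10.6, and Psmb8, at 1.37 ± 0.608, above Tap2 at 1.25 ± 0.0141, each pair with overlapping ranges. By TPM the groups of H2-K1 were apart, at 28.4 and 29.9 in control and 36.5 and 44.6 in lactate. TPM rests on the transcript lengths that RSEM estimated in each library, and the lengths implied by its values differed between libraries, most for Nlrc5, Psmb9, Psmb8 and H2-K1, where the longest was 1.39 (H2-K1) to 1.76 (Nlrc5) times the shortest. Psmb10 had the shortest implied length of the 10 genes, at 0.129 to 0.152 on a relative scale, against 0.817 to 0.844 for H2-D1. Its place beside H2-D1 in the order rests on that short length.

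The heavy chain genes lie apart on chromosome 17. In GRCm38 coordinates H2-K1 is at 33996017 to 34000347 on the minus strand and H2-D1 at 35262730 to 35267499 on the plus strand. B2m lies on chromosome 2 at 122147686 to 122153083 on the plus strand. Their proximal promoters are the textbook case of shared class I control, with a kappaB element, an interferon-stimulated response element (ISRE) and the SXY module that binds NLRC5 through RFX, CREB and NF-Y factors. The RefSeq sequences before the start sites of H2-K1 (chr17:34000348-34000597, minus strand) and B2m (chr2:122147437-122147685, plus strand) are shown because they hold the elements through which class I genes are known to be controlled together. They are from GRCm38.p6 and run 5′ to 3′, with capitals for matches on either strand to the class I kappaB form GGGANTNCC, the classical kappaB site, the ISRE core TTTCNNTTC and a form of it that is longer by 1 base, the X2 core TGACG and the Y box core ATTGG.
H2-K1: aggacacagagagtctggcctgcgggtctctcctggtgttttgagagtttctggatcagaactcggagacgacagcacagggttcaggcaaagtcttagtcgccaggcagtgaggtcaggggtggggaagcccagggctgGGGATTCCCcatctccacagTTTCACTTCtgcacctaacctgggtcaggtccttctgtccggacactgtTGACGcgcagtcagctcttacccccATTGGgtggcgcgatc
B2m: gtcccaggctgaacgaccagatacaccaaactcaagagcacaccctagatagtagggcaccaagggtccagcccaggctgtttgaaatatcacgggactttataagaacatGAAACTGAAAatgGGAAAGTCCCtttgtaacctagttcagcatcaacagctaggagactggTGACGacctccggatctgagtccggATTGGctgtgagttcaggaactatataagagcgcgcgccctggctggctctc

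GENCODE places no gene in the H2-K1 window, and the B2m window lies in an intron of Patl2 on the opposite strand. In both, the kappaB and ISRE matches stand within 29 bases of each other, upstream of TGACG and then ATTGG, but in B2m the ISRE match comes first and is on the other strand. The window of H2-D1 is annotated as a 5′ UTR of a longer transcript, so only its kappaB and ISRE stretch (chr17:35262924-35262952, plus strand) is given here, beside that of H2-K1 (chr17:34000429-34000457, minus strand).
H2-K1 stretch: GGGATTCCCcatctccacagTTTCACTTC
H2-D1 stretch: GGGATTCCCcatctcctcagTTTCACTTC
Without gaps and at a shift of 60 bases, the windows of H2-K1 and H2-D1 were identical at 166 of 190 bases (87.4%), and the matches from kappaB through ISRE and TGACG to the first ATTGG lay 60 bases farther from the start in H2-D1.

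RefSeq windows, each of 250 bases before and 50 after a start site, were at hand for 8 of the 10 genes, and those of Tap2 and Nlrc5 were not. Of 32851 windows of all genes, 7.52% held TTTCNNTTC, which was found here in H2-K1 and H2-D1, and 3.44% held the longer form, found in B2m. GGGANTNCC was in 3.95% of all windows and the classical kappaB site in 0.155%, with the first in H2-K1 and H2-D1 and the second in B2m. The GAS motif TTCNNNGAA was in 8.3% of all windows and among the 8 in Psmb8. The short cores are common, with TGACG in 20.8% of all windows and 5 of the 8, and ATTGG in 37.4% of all windows and 6 of the 8. Matches to different motifs did not overlap in the 8 windows. The motifs were picked after these sequences had been seen, and a match describes letters only.

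**Figure D2:**
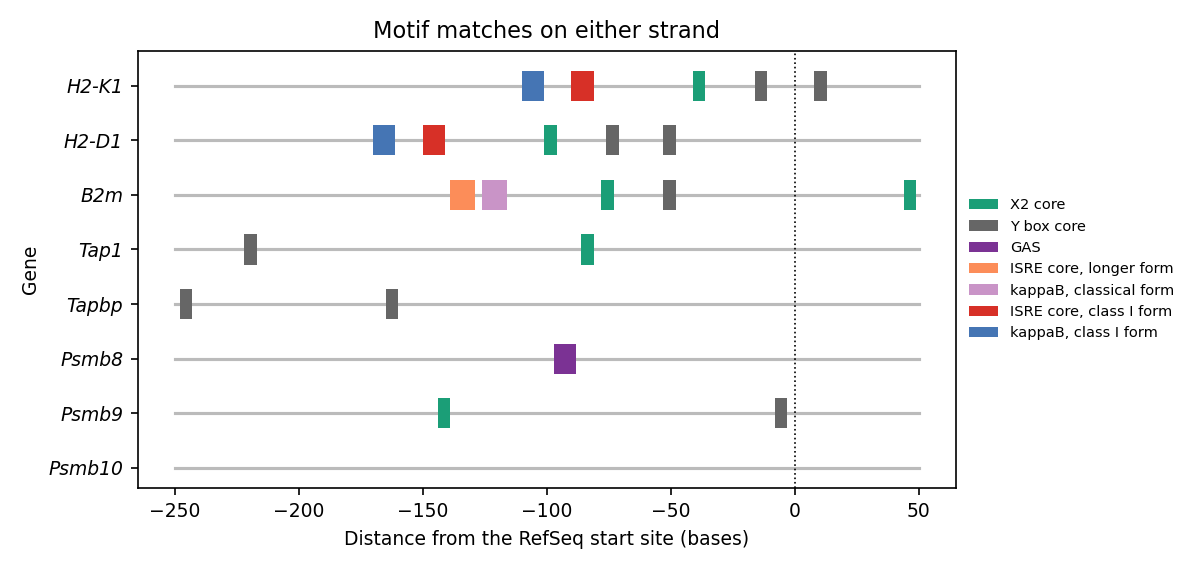
Positions of the motif matches on either strand, as distance in bases from the RefSeq start site (dotted line), in the windows of the 8 genes with a sequence. The matches from kappaB to the first ATTGG lie in the same order in H2-K1 and H2-D1, 60 bases farther from the start in H2-D1, B2m carries the longer ISRE form and the classical kappaB form, and no match was found in the Psmb10 window.

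H2-K1 had 223 and 369 reads in control and 302 and 505 reads in lactate. In both groups the replicate 2 library was the higher, and the lactate 1 library lay between the controls on the CPM scale. The log2 fold change was 0.37 ± 0.29 (SE) with an adjusted p of 0.496 by edgeR's quasi-likelihood test. Without lactate replicate 2 it was 0.00, and without control replicate 2 it was 0.69. H2-D1, the partner locus, had 598 and 912 reads in control and 553 and 942 in lactate, again with the higher values in the replicate 2 libraries. This is a log2 fold change of -0.09 ± 0.27 (adjusted p = 0.879, edgeR), and leaving out 1 library moved it from -0.48 to 0.18. The summed feeder marker CPM was also higher in the replicate 2 libraries, by more in control than in lactate, and its part in these values was not tested.

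B2m had 1080 and 1005 reads in control against 1267 and 1005 in lactate. Here the replicate 1 libraries were the higher ones, and the lactate values enclosed the control values on the CPM scale, at 68.2 and 50.9 around 62.5 and 53.0. Fitted, this is 0.05 ± 0.18 on the log2 scale, with an adjusted p of 0.916 by edgeR's quasi-likelihood test. B2m lies wholly within Patl2, a gene on the opposite strand whose counts were 315 and 481 in control and 678 and 843 in lactate (log2 fold change 0.86 ± 0.20, adjusted p = 0.0833, edgeR). The strand setting of the counting is not given in the sources used here, but no 100-base window of the B2m transcripts occurs in another gene.

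Between the heavy chains, the balance within a library differed by more than it did between replicates. The H2-K1 to H2-D1 ratio of raw counts was 0.373 and 0.405 in control and 0.546 and 0.536 in lactate. Both lactate ratios were the higher ones, by 0.48 on the log2 scale, with an exact two-sided permutation p of 0.333, the smallest that 2 against 2 libraries can give. On the TPM scale the ratios were 1.09 and 0.788 in control against 1.53 and 1.15 in lactate, also without overlap. The pair was picked after its values had been seen. Of windows of 100 bases in their transcripts, 0.957% in H2-K1 and 3.59% in H2-D1 also occur in another gene. With windows of 50 bases the shares were 9.63% and 12.8%, and H2-K1 and H2-D1 shared some of these with each other.

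TAP is a heterodimer whose subunit genes, with Psmb9 and Psmb8, lie next to each other on chromosome 17 between 34181987 and 34216321. Tap1 had 126 and 198 reads in control and 76 and 109 in lactate. Both lactate libraries lay below both controls, at 4.09 and 5.53 CPM against 7.29 and 10.4. The log2 fold change was -0.88 ± 0.27, with an unadjusted p of 0.0153 and an adjusted p of 0.130 by edgeR's quasi-likelihood test, so Tap1 was not called. Leaving out lactate replicate 2 gave -1.12 with an adjusted p of 0.0182 and a call, in a setting that called 1.9% of all genes lower. Leaving out control replicate 2 gave -0.60 with an adjusted p of 0.411. With no filter on low counts the adjusted p was 0.0301 at less than 2-fold.

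Tap2 had 13 and 25 reads in control against 30 and 40 in lactate. These counts are low, and both lactate libraries were the higher ones, at 1.61 and 2.03 CPM against 0.752 and 1.32. The log2 fold change was 0.80 ± 0.35 (unadjusted p = 0.0623, adjusted p = 0.242, edgeR's quasi-likelihood test), which is not a call, and it was 0.45 without control replicate 1 and 1.27 without control replicate 2. Antisense transcripts overlap Tap2, of which Gm15821 had 5 to 14 reads a library and Gm20496 had 1 to 7.

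The 2 subunit genes of TAP thus lay on opposite sides of 0. Within each library the Tap1 to Tap2 ratio of raw counts was 9.69 and 7.92 in control and 2.53 and 2.73 in lactate. The groups were apart by 1.74 on the log2 scale (a log2 difference of -1.74), and the exact two-sided permutation p was 0.333, again the smallest the design allows. The ratio of TPM was 6.97 and 6.57 in control against 1.85 and 2.51 in lactate. This pair, too, was chosen after its values had been seen.

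Tap1 and Psmb9 are transcribed away from each other from RefSeq start sites 226 bases apart, and the annotated genes overlap over 212 bases. The X2 core TGACG lies once between these starts, so that the same bases count for both genes. It is shown with 12 bases on each side, in the Tap1 direction, from GRCm38.p6 (chr17:34187458-34187486, plus strand), for comparison with the same stretch of H2-K1 (chr17:34000372-34000400, minus strand), H2-D1 (chr17:35262981-35263009, plus strand) and B2m (chr2:122147597-122147625, plus strand). Capitals mark the core, from RefSeq.
Tap1 X2: cccagagacaggTGACGacagagggtcct
H2-K1 X2: tccggacactgtTGACGcgcagtcagctc
H2-D1 X2: ccgggacactgaTGACGcgctggcaggtc
B2m X2: ctaggagactggTGACGacctccggatct
In H2-K1, H2-D1 and B2m an ATTGG match began 25 bases after the start of the core, the same spacing in all 3 genes. In Tap1 the only ATTGG match lay upstream of the core, at position -222 from the start site and on the other strand.

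**Figure D3:**
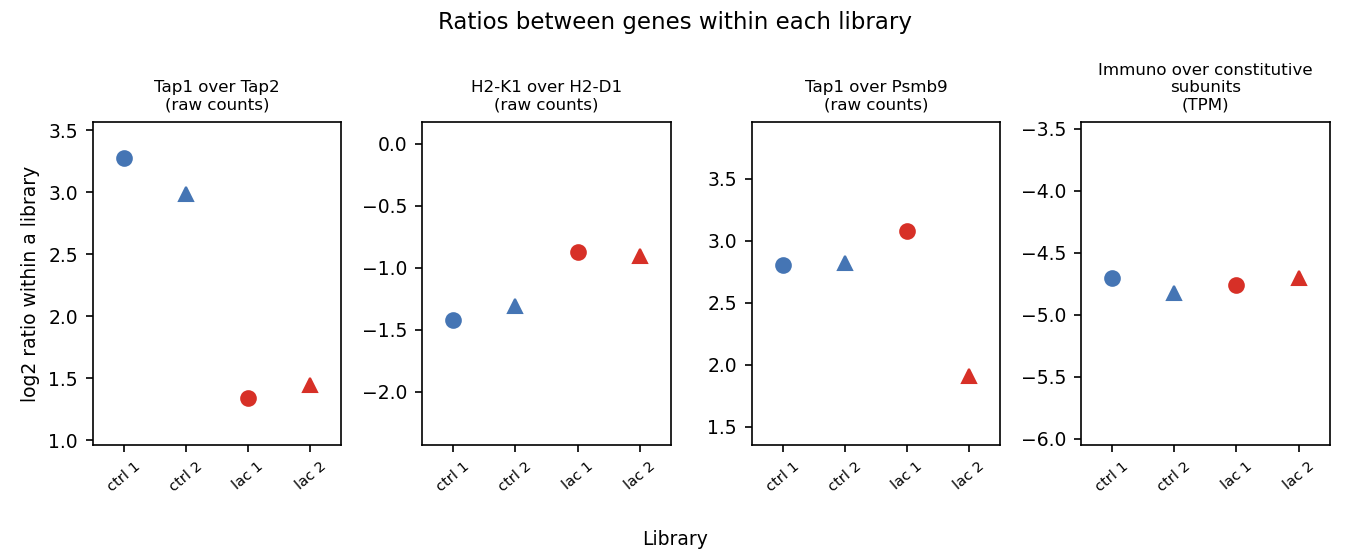
Log2 ratios within each of the 4 libraries (blue control, red lactate, circles replicate 1, triangles replicate 2), from raw counts for Tap1 over Tap2, H2-K1 over H2-D1 and Tap1 over Psmb9, and from TPM for summed Psmb8, Psmb9 and Psmb10 over summed Psmb5, Psmb6 and Psmb7. Every panel spans the same height, and the groups are apart in the first 2 panels and overlap in the last 2.

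Tapbp, at 33915899 to 33929292 on the plus strand of chromosome 17, had 557 and 680 reads in control and 296 and 382 in lactate. The groups were apart, with 32.2 and 35.8 CPM in control and 15.9 and 19.4 in lactate. The log2 fold change was -0.95 ± 0.17, which is a level 1.93-fold lower, with an unadjusted p of 0.00122 and an adjusted p of 0.0571 by edgeR's quasi-likelihood test. It is therefore just outside the call on both criteria. Without lactate replicate 2 Tapbp was called at -1.10 (adjusted p = 0.00327, edgeR). Without lactate replicate 1 the adjusted p was 0.0406 at -0.84, under 2-fold, and without control replicate 1 or 2 it was 0.110 and 0.102.

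DESeq2 gave Tapbp an adjusted p of 0.00357 at -0.95, where 2.65% of all genes were lower at an adjusted p under 0.05, and no call since the change was under 2-fold. DESeq2 on the RSEM expected counts, a setting added after seeing the data, called it at -1.04 with an adjusted p of 0.000942, among 0.891% of genes called lower. On the TPM scale Tapbp was at 25.8 and 27.8 in control and 13.3 and 12.2 in lactate. All 17 alternative settings put the gene lower in lactate, though the adjusted p alone is the same fit as the main one.

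Reads at this locus can belong to several genes. Gm19412, an antisense gene, overlaps Tapbp over 1207 bases and had 123 and 135 reads in control and 72 and 69 in lactate, a log2 fold change of -0.95 ± 0.20 (adjusted p = 0.0688, edgeR). Without the strand setting, the reads of Tapbp and Gm19412 cannot be told apart. Zbtb22, which overlaps the annotated gene on the same strand, had a log2 fold change of 0.11 ± 0.22. Of 100-base windows in the Tapbp transcripts, 14.8% occur in another gene, Gm19412 among them. The 250 bases before the RefSeq start of Tapbp overlap exons of all 3 genes in GENCODE, and they held matches to ATTGG alone.

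The immunoproteasome genes were at the lower end of the level order apart from Psmb10. Psmb8 had 2 and 2 reads in control and 7 and 10 in lactate, below the filter on low counts. Summed per group these are 4 and 17 reads, a depth-adjusted ratio of 4.02 with a 95% interval from 1.31 to 16.4 that covers counting error only. With no filter its log2 fold change was 1.90 with an adjusted p of 0.169 (edgeR). The antisense gene Gm20496 overlaps Psmb8 as well.

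Psmb9 had 18 and 28 reads in control and 9 and 29 in lactate. On the CPM scale lactate 1 was the lowest library at 0.484, and lactate 2, at 1.47, lay beside the higher control at 1.48. This gave a log2 fold change of -0.36 ± 0.52 (adjusted p = 0.738, edgeR), and leaving out 1 library moved it from -1.38 to 0.19. The ratio of its divergent neighbour Tap1 to Psmb9, in raw counts, was 7 and 7.07 in control against 8.44 and 3.76 in lactate, with overlapping groups.

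Psmb10, on chromosome 8 at 105935735 to 105938444, had 93 and 139 reads in control and 94 and 139 in lactate. The same-numbered libraries of the 2 groups were almost equal, and the log2 fold change was -0.07 ± 0.26 (adjusted p = 0.908, edgeR's quasi-likelihood test). Over the 4 libraries, Psmb10 had the profile nearest to the mean of the 9 tested genes, of which it is 1. Its Euclidean distance was 0.0494 in centred log2 CPM, and Tapbp was the farthest, at 0.890. The mean profile was -0.165 and 0.239 in control and -0.234 and 0.160 in lactate, so it followed the replicate number more than the treatment. Outside the pathway, the 5 genes nearest to that mean profile over the 4 libraries were Znrf1, Stard3, Tusc3, Zbtb48 and Bccip, at distances of 0.00854 to 0.0294.

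The constitutive subunits that the immunoproteasome subunits replace are Psmb5, Psmb6 and Psmb7. Their log2 fold changes were -0.02, -0.06 and 0.24, none called. By TPM, the immunoproteasome subunits made up 3.69% and 3.41% of the catalytic subunits in control and 3.55% and 3.69% in lactate. These groups overlapped, and the log2 ratio differed by 0.03 with an exact two-sided permutation p of 0.667. From raw counts the sign turned, at -0.12, with ratios of 0.0265 and 0.0277 in control and 0.0243 and 0.0255 in lactate. There the groups were apart, with an exact two-sided permutation p of 0.333, the smallest possible. By TPM and without control replicate 2 the difference was -0.03. The single pairs of subunits went different ways. Psmb8 made up 0.223% and 0.251% of the summed TPM of Psmb8 and Psmb5 in control and 0.515% and 0.671% in lactate, the higher values, on the few reads given above. Psmb9 made up 0.596% and 0.325% of the summed TPM of Psmb9 and Psmb6 in control and 0.176% and 0.303% in lactate, the lower values. Psmb10 made up 10.3% and 11.2% of the summed TPM of Psmb10 and Psmb7 in control, against 9.58% and 10.05% in lactate, also lower. The log2 differences of these 3 ratios of TPM were 1.32, -0.94 and -0.14, each without overlap and with an exact two-sided permutation p of 0.333. The Psmb9 values, too, rest on few reads, at 6 to 18 RSEM expected counts a library. Its implied length was 0.324 in control replicate 1 and 0.514 to 0.566 in the others. In raw counts Psmb6 had 1734 and 2923 reads in control and 1768 and 2940 in lactate, and the Psmb9 to Psmb6 ratios of the groups overlapped.

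Nlrc5, on chromosome 8 at 94434356 to 94527272, had 23 and 43 reads in control and 52 and 54 in lactate. Both lactate libraries were the higher ones, at 2.80 and 2.74 CPM against 1.33 and 2.27. The log2 fold change was 0.61 ± 0.31 (adjusted p = 0.298, edgeR's quasi-likelihood test), which is not a call, and it was 0.27 without control replicate 1 and 1.05 without control replicate 2. Nlrc5 transcripts shared no 100-base window with another gene.

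**Figure D4:**
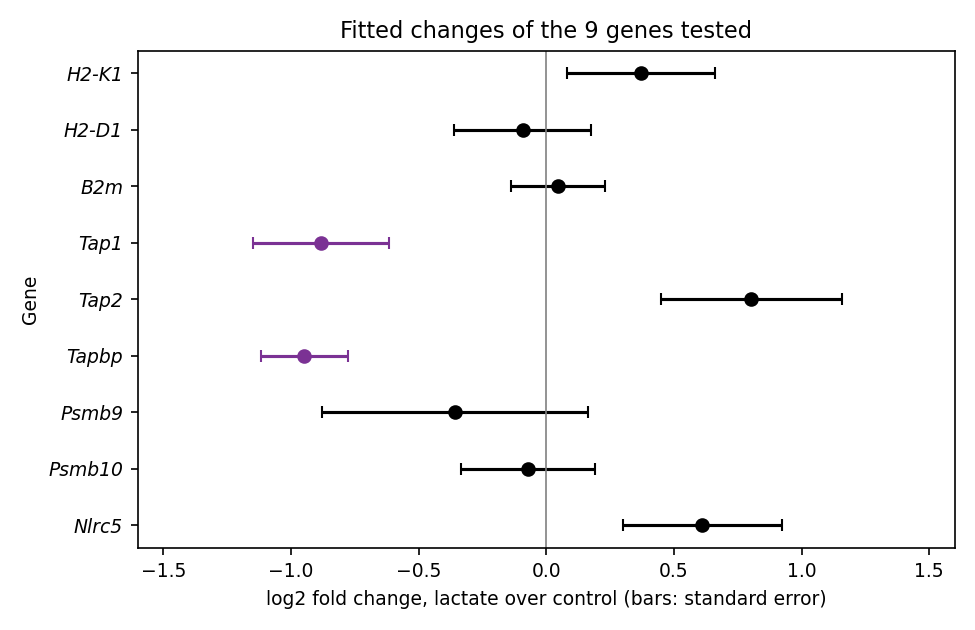
Fitted log2 fold changes of the 9 tested genes, lactate over control, with bars of 1 standard error (edgeR). Tapbp and Tap1, in purple, had an unadjusted p under 0.05, and no gene was called at an adjusted p under 0.05 with more than 2-fold.

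Beyond the 10 genes, the same fit was read for lists of the wider pathway, whose members were listed with earlier results of these data known. Transcriptional regulators of class I genes were measured for 21 genes, of which 19 were tested, 9 were on the higher and 10 on the lower side, and none was called, at a median log2 fold change of -0.00 beside 0.01 over all genes. At an unadjusted p under 0.05, 6 of the 19 were lower and 0 higher, beside 11.4% and 11.7% of all genes. They include Stat2 at -0.74 ± 0.12 (adjusted p = 0.0526, edgeR) and its partner Irf9 at -0.62 ± 0.15 (0.0929), which act downstream of type I interferon. Irf1, a direct activator of Tap1 and Psmb9 in many cells, was at -0.49 ± 0.17 (0.156). Among them were also Nfya, a subunit of the Y box factor NF-Y, at -0.66 ± 0.13 (0.0620) and Rfx5, which binds the X1 box, at -0.55 ± 0.15 (0.112). Other subunits of the same complexes lay on the higher side. Nfyb was at 0.29 ± 0.13 (0.254), higher in both lactate libraries, and Nfyc at 0.33 ± 0.23 (0.440) and Rfxank at 0.18 ± 0.18 (0.624) had overlapping groups. Irf2 was below the filter, with 7 to 12 reads a library, and Ciita, the class II transactivator, was at 0.08 ± 0.35.

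Stat2 had 1549 and 1612 reads in control and 972 and 1026 in lactate, and Irf9 had 579 and 573 against 404 and 390, both without overlap. Interferon receptors and kinases, 9 genes all tested, had 3 on the higher and 6 on the lower side with none called, at a median of -0.18. Over all genes 49.0% were on the lower side. The type I interferon receptor chain Ifnar1 was at -0.41 ± 0.13 (adjusted p = 0.142, edgeR) and the kinase Jak1 at -0.23 ± 0.14 (0.369).

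The nonclassical class I and class I-like genes, many of them relatives of the heavy chain genes in the Q, T and M regions, were measured for 23 genes, of which 17 were tested, with 11 on the higher and 6 on the lower side and none called. Their median log2 fold change was 0.55, beside 0.01 over all genes and -0.07 in the 9 classical pathway genes. At an unadjusted p under 0.05, 6 of the 17 were higher and 0 lower, beside 11.7% and 11.4% of all genes. H2-Q7, the gene of the Qa-2 antigen, had 27 and 21 reads in control and 67 and 66 in lactate (1.38 ± 0.27, adjusted p = 0.0640, edgeR). With 1 library left out its log2 fold change ran from 1.14 to 1.63. With no filter on low counts it was called at 1.34 (adjusted p = 0.00708, edgeR), where 482 of 32923 genes were called higher. It was not called with DESeq2 (adjusted p = 0.0699) or with RSEM expected counts (adjusted p = 0.0768, edgeR). Hfe, a regulator of iron uptake, had 13 and 13 against 28 and 36 (1.21 ± 0.31, adjusted p = 0.0960). H2-T23, the gene of Qa-1, was at -0.28 ± 0.44 with 11 to 24 reads a library. These relatives share sequence, and 12% of the 100-base windows in H2-Q7 transcripts occur in another gene, against 0.957% in H2-K1. With 50-base windows the shares were 26.5% and 9.63%, so the value of H2-Q7 is less certain.

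Among peptidases and chaperones of the loading step, 11 of 13 genes were on the lower side, beside 49.0% of all tested genes, with a median of -0.23. Of the 13, 1 was called, beside 0.348% of all genes called lower. The called gene was Hspa5, the endoplasmic reticulum chaperone BiP, which fell from 9143 and 11716 reads in control to 4308 and 5551 in lactate (log2 fold change -1.16 ± 0.17, adjusted p = 0.0467, edgeR). This call held in 11 of 17 alternatives. It was lost with library totals alone (adjusted p = 0.0550, edgeR), with at least 10 counts in every library (0.0509) and with RSEM expected counts (0.0541). Without control replicate 1 it was lost too, at a log2 fold change of -1.29. Not all of these outcomes were free. Limma-trend called 0 of all genes at either pseudocount. The adjusted p alone used the same fit with no fold threshold, so every call held there. Calreticulin (Calr), a partner of tapasin in the loading complex, was at -0.62 ± 0.14 (0.0805), and ERp57 (Pdia3), the disulfide isomerase bound to tapasin, at -0.46 ± 0.19 (0.210). Calnexin (Canx) was at -0.07 ± 0.15, the trimming peptidase Erap1 at -0.23 ± 0.30 and the tapasin-related Tapbpl at 0.28 ± 0.25, none of them called.

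The constitutive proteasome had 12 of 14 genes on the lower side, beside 49.0% of all genes, with a median of -0.27 and none called. Its largest differences were Psma2 at -0.71 ± 0.13 (adjusted p = 0.0578, edgeR) and Psmb2 at -0.37 ± 0.17 (0.254). The median ran from -0.43 to -0.19 with 1 library left out. Proteasome activators and assembly factors, 9 genes, had 6 on the lower side, beside 49.0% of all genes, with a median of -0.15 and none called. The interferon-responsive PA28 subunits Psme1 and Psme2 were at -0.11 ± 0.14 and -0.31 ± 0.23, the assembly factor Pomp at -0.56 ± 0.25 and Psme4 at -0.38 ± 0.14. With 1 library left out the median of this list ran from -0.34 to -0.04, Pomp from -0.89 to -0.29 and Psme2 from -0.60 to -0.11. Of 10 MHC class II genes, 5 were below the filter and none was called, and H2-Eb1 was at 0.80 ± 0.27 (adjusted p = 0.159) and H2-DMb1 at 0.56 ± 0.30 (0.319). H2-DMb1 was at -0.014 with limma-trend on FPKM.

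Most interferon-stimulated genes of other functions were on the lower side, and their difference from the 9 class I genes was not tested. Over all tested genes, 49.0% were on the lower side and 0.348% were called lower. Of 8 tested genes of the oligoadenylate synthetase list, which sense double-stranded RNA, 8 were on the lower side at a median of -0.98, and Oasl1 (-1.57 ± 0.16, adjusted p = 0.0320, edgeR) and Oas2 (-1.51, adjusted p = 0.0406) fell. Oasl2 was at -2.22 ± 0.34 (0.0510). Of 9 tested interferon-inducible GTPases, 8 were on the lower side at a median of -1.28. Tgtp1 (-2.75 ± 0.37, adjusted p = 0.0434), Irgm1 (-2.71 ± 0.24, adjusted p = 0.0312) and Gvin1 (-2.18, adjusted p = 0.0406) fell. Of 25 other interferon-stimulated genes and sensors, 25 were on the lower side at a median of -0.77, and Usp18, which restrains the interferon receptor, fell by 1.96 ± 0.25 on the log2 scale (adjusted p = 0.0406). Rtp4 was at -2.52 ± 0.48 (0.0606). The calls of Oasl1, Irgm1 and Usp18 held in 15 of 17 alternatives and those of Tgtp1 and Gvin1 in 14. That of Oas2 held in 13. With RSEM expected counts the calls of Tgtp1, Gvin1 and Oas2 were lost, each at an adjusted p of 0.0515 (edgeR). Without control replicate 1 that of Oas2 was lost too, at a log2 fold change of -1.29. As for Hspa5, the outcomes with limma-trend and with the adjusted p alone were fixed in advance. Oasl2 and Rtp4 were called with DESeq2 (0.00218 and 1.28e-05), with DESeq2 on the RSEM expected counts (0.00605 and 1.25e-05) and by edgeR with no filter (0.000149 and 6.05e-05), without control replicate 2 (0.00170 and 4.61e-05), without lactate replicate 1 (0.000358 and 9.19e-10) and without lactate replicate 2 (0.000127 and 1.41e-06).

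**Figure D5:**
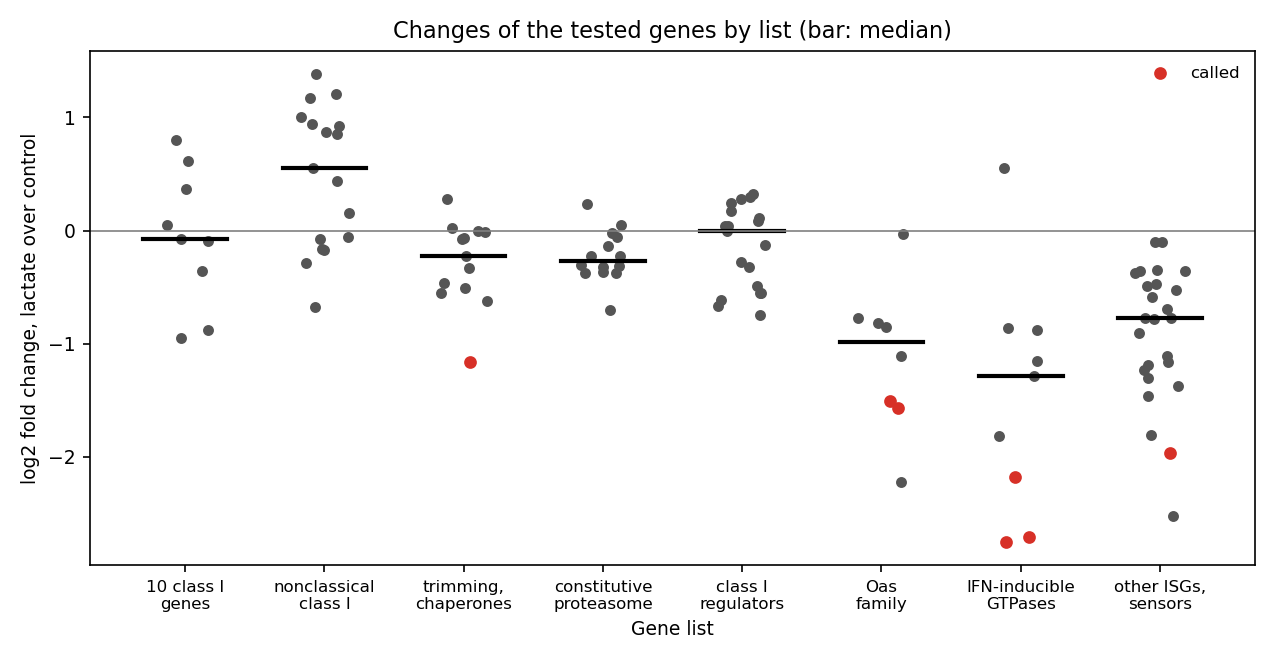
Fitted log2 fold changes (lactate over control, edgeR) of the tested genes of 8 lists, each point a gene, red where called and with a bar at the list's median. The 9 class I genes spread around a median of -0.07, the nonclassical genes lie higher at 0.55, and the oligoadenylate synthetases, inducible GTPases and other interferon-stimulated genes lie lower, at -0.98, -1.28 and -0.77.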

How the data were processed

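RNA-seq libraries of AB2.2 mouse ESCs were analysed from deposited tables, 2 control and 2 lactate. The authors trimmed reads with cutadapt 1.16, mapped them with STAR to the mouse genome (mm10) and deposited a matrix of raw counts per gene from STAR, whose strand setting is not given in the sources used here. For each library the authors also deposited a table from RSEM with the expected counts, TPM and FPKM of each gene. Rows of transposable element families in the matrix, 7.36% to 9.41% of all counts, were left out of library sizes and tests.

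The fit to the counts used edgeR 4.0.16 under R 4.3.3 (legacy quasi-likelihood test, filterByExpr, TMM, no replicate term) over 18661 genes, with Benjamini-Hochberg adjustment over all of them. The study used DESeq2, which served here as an alternative (version 1.42.0). Calls needed a difference above 2-fold with an adjusted p under 0.05. The SE is the log2 fold change divided by the square root of F. Levels between genes were compared by TPM. Positions are from GENCODE on GRCm38. The tests were tried on simulated counts with known changes. Between libraries of a group the chi-square per degree of freedom was 32.2 and 31.4, so none was a repeat deposit.

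The 10 genes, the 10 lists beside them and the 4 lists of cell type markers (ESC, feeder fibroblast, leukocyte and primitive endoderm) were chosen with earlier results of these data known. Of the primitive endoderm markers 5 of 6 were tested and none was called, at a median log2 fold change of 0.39. Named were all 10 genes, a fixed list of counterparts and partners (Psmb5 to Psmb7, Psme1, Psme2, H2-T23, Erap1, Tapbpl, Calr, Canx, Pdia3, Irf1, Irf2, Irf9, Stat2, Rfx5 and 1 gene not reported here), called genes of each list, the 2 tested genes of each list with the largest absolute log2 fold change, markers near 0, and the 5 genes nearest to the mean profile with a mean CPM of at least 5. Patl2, Gm19412, Zbtb22, Gm15821, Gm20496, Ciita, Nfyb, Nfyc and Rfxank were named after their values were seen. Alternatives changed the test (DESeq2), the scaling (RLE, upper quartile, totals alone) and the filter (none, or 10 counts or more per library), added a replicate block, or used RSEM expected counts rounded to whole numbers, limma-trend (limma 3.58.1) on FPKM above a mean of 0.1 with pseudocounts of 1 and 0.1, the adjusted p alone, mitochondrial genes left out, and each library left out in turn. DESeq2 on the RSEM expected counts was chosen after seeing the data.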

Additional observations from a re-analysis of the deposited data

How the results depend on the processing

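Over all genes, 65 were called lower and 103 higher. The counts lower and higher were 162 and 213 with DESeq2, 40 and 108 with library totals alone, 325 and 482 with no filter, 17 and 27 with RSEM expected counts, 139 and 172 with DESeq2 on them, 0 and 0 with limma-trend at either pseudocount (at an unadjusted p under 0.05, 1123 and 1791 with a pseudocount of 1), and 39 to 367 and 45 to 502 with 1 library left out. With a replicate block they were 395 and 761. The same-numbered libraries deviated together from their group means (r = 0.686, 1 value from 2 pairs over 18661 genes), but no label says that a number marks a shared culture or batch. With the block, Tapbp and Tap1 were lower, and H2-K1, Nlrc5 and Tap2 higher, at an adjusted p under 0.05 (edgeR, 0.00617, 0.0489 and 0.0281 for the higher genes), in a setting that put 22.5% of all genes lower and 22% higher at that level, and none of the class I genes passed 2-fold. With the block H2-Q7 was called at 1.39 (adjusted p = 9.66e-05, edgeR) and Hfe at 1.21 (0.00419), and so were Oasl2 (2.76e-06) and Rtp4 (1.49e-08).

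Of the class I genes, 1 was called lower with DESeq2 on the RSEM counts, beside 0.891% of all genes. This was the only call of these genes in settings with all 4 libraries, and the calls without lactate replicate 2 are given above. With 1 library left out the log2 fold change ran from -1.10 to -0.84 for Tapbp and from -1.13 to -0.60 for Tap1. At an unadjusted p under 0.05, 2 were higher with no filter (beside 7.69% of all genes), 3 with the block (25.7%), 1 with limma-trend at either pseudocount (8.95% and 9.09%) and 0 to 3 with 1 library left out (7.29% to 10.4%), and 1 to 3 were lower with 1 library left out (7.13% to 11.1%). Groups did not overlap with limma-trend for 4 genes on the higher side (beside 28% of all genes) and 3 on the lower (18%), and with 1 library left out, where 1 library stands for a group, for 2 to 5 on the lower side (35.9% to 39.6%). The median log2 fold change of the genes was 0.09 with limma-trend at either pseudocount and -0.33 to 0.18 with 1 library left out.

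The immunoproteasome ratio turned to -0.12 with raw counts and was -0.028 to 0.090 with 1 library left out. The sign turned for these genes: B2m at -0.0043 with RSEM counts, Psmb10 at 0.13 and 0.14 with limma-trend at a pseudocount of 1 and 0.1, Psmb5 at 0.0098 with upper-quartile factors, 0.046 with library totals and 0.034 with limma-trend, Psmb6 at 0.0080 with library totals and 0.017 with limma-trend, Erap1 at 0.19 and 0.40, Canx at 0.031 and H2-DMb1 at -0.014 with limma-trend. With 1 library left out the ranges were -0.21 to 0.24 for B2m, -0.48 to 0.18 for H2-D1, -1.38 to 0.19 for Psmb9, -0.33 to 0.17 for Psmb10, -0.46 to 0.28 for Psmb5, -0.42 to 0.28 for Psmb6, -0.78 to 0.14 for H2-T23 and -0.51 to 0.090 for Erap1. The causes were not tested.

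With 1 library left out the medians were 0.37 to 0.53 for nonclassical genes, 0.38 to 0.50 for MHC class II genes, -0.30 to -0.090 for loading chaperones, -0.22 to -0.0025 for regulators, -0.15 to -0.10 for interferon receptors and kinases, -1.24 to -0.78 for oligoadenylate synthetases, -1.504 to -1.13 for GTPases and -0.88 to -0.71 for other interferon-stimulated genes. With library totals alone they were 0.066 for regulators, -0.11 for receptors and kinases and -0.70 for interferon-stimulated genes, and with RSEM counts -0.061 for receptors and kinases. The order of levels was the same by FPKM for 10 of 10 genes in both groups. Within a library FPKM and TPM differ only in scale, so this order was all but fixed in advance and is no separate check. Tap2, Psmb8, Psmb9 and Nlrc5 had under 60 reads in every library, which limits the precision of their values.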
